A study of Mus musculus with 24 samples.

Results

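Red-cell transcripts were followed in RNA sequencing of purified mouse CD4+ T cells. The members were 8 of the 22009 named genes of the deposited table: the adult β-globin genes Hbb-bs and Hbb-bt, the adult α-globin genes Hba-a1 and Hba-a2, Slc4a1, Alas2, Klf1 and Gata1. They were selected on their loss between resting cells and 24 h of culture, as red-cell genes in a T-cell experiment. Their fall from rest is therefore described here without a test, and tests were kept for what the choice did not use: the differences between culture conditions, and genes that are not members.

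The 24 libraries came from wild-type adult C57BL/6 spleen. CD4+ cells had been enriched by removal of the other cells on magnetic beads, to a purity the labels put above 95%, and the cells of several mice were pooled, so that the cultures are not separate animals. Resting cells gave 2 libraries. Th0 cultures received anti-CD3 and anti-CD28, Th1 cultures IL-12 and anti-IL-4 in addition, and Th2 cultures IL-4 with antibodies to IFN-γ and IL-12, with 1 library for each condition at 4, 8, 12, 16, 20 and 24 h (18 cultures). The other 4 libraries were kept with actinomycin, which stops transcription, for 0, 1, 2 or 4 h after 16 h of stimulation, in a skewing condition the labels do not give. The methods name naive cells and a red-cell lysis step before the purification, whereas the labels name purified CD4+ cells. The resting libraries carry another tag in their labels than the cultures, so a difference between preparations and the effect of culture cannot be told apart.

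Red cells are the cells in which these genes are most strongly expressed. Haemoglobin is made of α- and β-globin chains, each holding a haem group. Its transcripts are most of the messenger RNA of a reticulocyte. This young red cell has lost its nucleus and makes no new RNA. Gata1 and Klf1 encode transcription factors that switch on the globin genes and the genes of haem synthesis and of the red-cell membrane in the nucleated precursors, which in the mouse are also found in the spleen. Alas2 encodes the erythroid enzyme of the first step of haem synthesis, and Slc4a1 encodes band 3, the anion exchanger of the red-cell membrane. Gata1 is also expressed in megakaryocytes, mast cells, basophils and eosinophils.

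On GRCm38, Hbb-bs (ENSMUSG00000052305.6) and Hbb-bt (ENSMUSG00000073940.3) lie on the minus strand of chr7:103826534-103828096 and chr7:103812524-103813996. Hba-a1 (ENSMUSG00000069919.7) and Hba-a2 (ENSMUSG00000069917.7) lie on the plus strand of chr11:32283511-32284465 and chr11:32296489-32297298. Slc4a1 (ENSMUSG00000006574.15) spans chr11:102348824-102366203 and Klf1 (ENSMUSG00000054191.8) chr8:84901928-84905291. Alas2 (ENSMUSG00000025270.13) and Gata1 (ENSMUSG00000031162.14) are X-linked, at chrX:150547375-150570638 and chrX:7959260-7978071. Within the α pair, 72.3% of the 50-base windows of Hba-a1 transcripts and 89.3% of those of Hba-a2 occur in the other gene, and within the β pair the shares are 53.2% for Hbb-bs and 58.3% for Hbb-bt. The split of reads between the genes of a pair is therefore uncertain, and their sum is the safer value. No window of the other 4 members was shared.

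The upstream sequence of 7 of the 8 members was taken from RefSeq on GRCm38.p6 and searched on both strands for letters bound by factors of the red-cell lineage or found in core promoters. The RefSeq starts lie inside the GENCODE spans given above, by 3 bases for Hba-a2 and 42 to 168 for Hbb-bs, Hbb-bt, Hba-a1, Alas2 and Klf1, and by 10161 for Gata1, so part or all of a searched stretch falls within a span. Over the 250 bases before the RefSeq start, the letters of a GATA site (AGATAA, or TGATAA, or either of them with G as the last letter) were found in Hbb-bs, Hba-a1, Hba-a2, Alas2 and Klf1, against 26.5% of all 32851 promoters. CCNCNCCC, the letters of the CACCC box bound by Klf1, was found in Hbb-bs, Hbb-bt, Alas2 and Gata1, against 45.9% of all promoters. CCAAT was found in all the globin genes and Klf1, against 33.9% of promoters, and TATAAA or TATAAG in all the globin genes and Alas2, against 17.0%. Matches overlapped only in Alas2, among those to CCNCNCCC and between its TATA matches. A match is a description of letters only, and no binding was measured here. The α-globin promoters are shown because these genes share most of their transcript windows as well: the 250 bases of Hba-a1 and Hba-a2 share an unbroken run of 247 bases. That run, at chr11:32296242-32296488 before Hba-a2, has the GATA, CCAAT and TATA letters in capitals.
Hba-a2: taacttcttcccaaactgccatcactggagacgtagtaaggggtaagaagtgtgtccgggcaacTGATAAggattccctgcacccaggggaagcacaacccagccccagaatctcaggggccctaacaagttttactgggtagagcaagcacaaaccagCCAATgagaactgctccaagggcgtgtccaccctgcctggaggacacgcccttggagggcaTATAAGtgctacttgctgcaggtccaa

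The β pair and the other members do not share such a run: the longest between Hbb-bs and Hbb-bt was 14 bases. Short stretches around their matches are printed for comparison, with the matched letters in capitals and 10 bases on either side, at chr7:103827942-103827967 and chr7:103813936-103813961 for the TATA letters and at chr7:103828004-103828031 and chr7:103814013-103814040 for the CACCC letters. The GATA letters of Alas2 at chrX:150547321-150547346 and of Klf1 at chr8:84901892-84901917 were on the opposite strand.
Hbb-bs TATA: gggcagagcaTATAAGgtgaggtagg
Hbb-bt TATA: gcattgggtaTATAAAgctgagcagg
Hbb-bs CACCC: ttccgtagagCCACACCCtggtaagggc
Hbb-bt CACCC: atctctgaagCCTCACCCtgcagggtaa
Alas2 GATA: actttgctttTTATCTttagcagagg
Klf1 GATA: tgcctgggtcTTATCAgggaagacag

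The deposited values are RPKM, reads scaled to transcript length and to the mapped reads of the library. The steps between low values gave 17512385 to 33017133 mapped reads per library, with 56.2% to 58.7% of the genes of 1 transcript at whole reads within 0.001. Cd3g, Lck and Cd4, which mark the labelled cell type, were at 464, 442 and 327 RPKM at rest, below every globin gene. In bulk RNA, fewer cells of a type and less RNA per cell cannot be told apart.

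Resting CD4+ T-cell preparations carried haemoglobin RNA at the top of the table. Hbb-bs was at 13994 and 15013 RPKM in the resting libraries and was the most abundant gene. Hba-a2 was at 9965 and 10943 RPKM (rank 3), Hba-a1 at 8698 and 9761 RPKM (rank 5) and Hbb-bt at 5313 and 5772 RPKM (rank 10). The 4 globin genes together took 6.25% and 6.86% of the summed RPKM. The summed α- and β-globin transcripts were close to balance in RPKM, with an α to β ratio of 0.967 and 0.996. The membrane gene Slc4a1 was at 444 and 459 RPKM (rank 166) and the haem synthesis gene Alas2 at 277 and 286 RPKM (rank 252). The transcription factors were lower, Klf1 at 45.6 and 51.7 RPKM (rank 1926) and Gata1 at 30.7 and 30.8 RPKM (rank 3167). The resting libraries differed by at most 1.13-fold for any member, with the higher value in the same library each time.

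**Figure D1:**
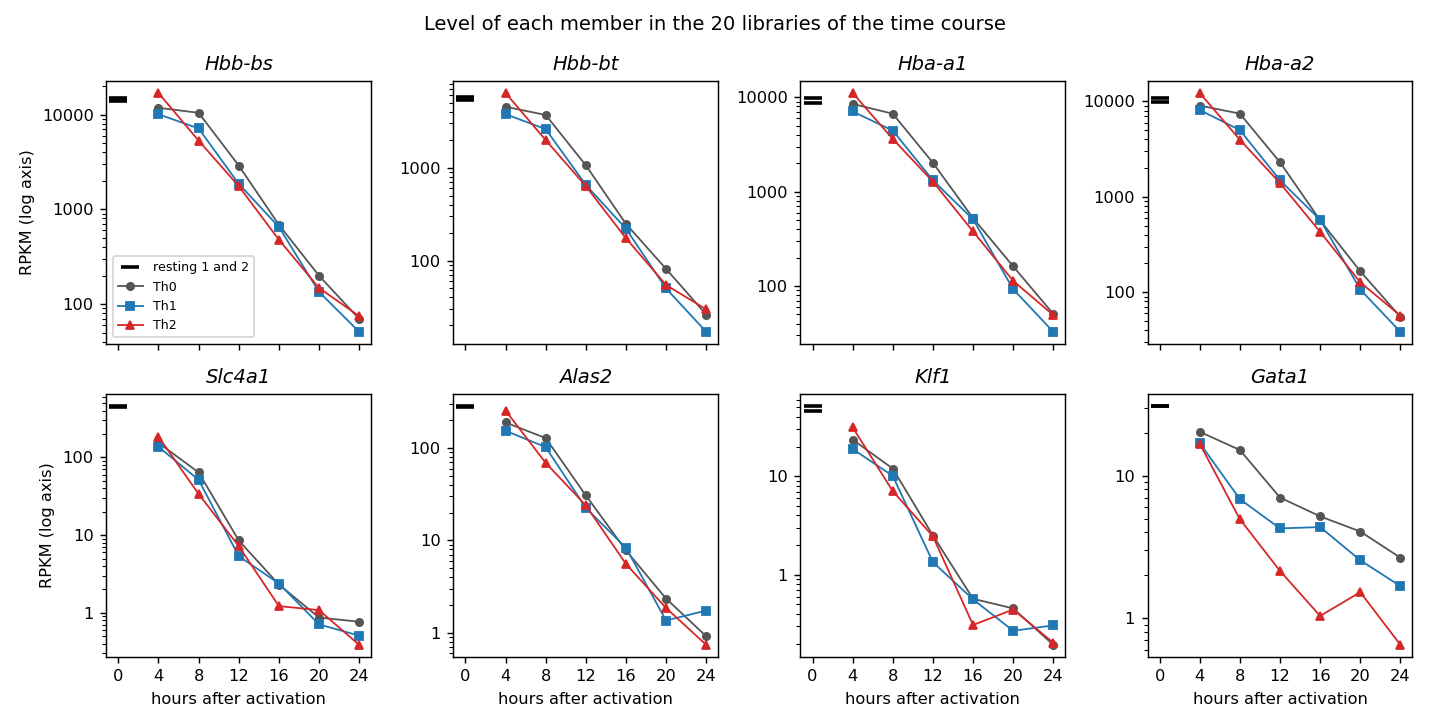
RPKM of each member (log axis, 1 panel a gene) against hours after activation; bars at 0 h are the 2 resting libraries, and each point is 1 library of the Th0, Th1 or Th2 cultures. The globin genes stayed near the resting level at 4 h and had fallen to between 17.1 and 74.6 RPKM at 24 h, while Gata1 fell less and lay lowest in Th2 at every time.

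All 8 transcripts were lost in culture, but not together. At 4 h the globin transcripts were near their resting level, at 89.0% ± 24.4 (SD, n = 3 cultures) for Hbb-bs, 88.3% ± 24.2 for Hbb-bt, 96.2% ± 22.1 for Hba-a1 and 93.8% ± 20.7 for Hba-a2. Alas2 was then at 70.9% ± 18.1, Gata1 at 58.4% ± 6.5, Klf1 at 50.6% ± 13.0 and Slc4a1 at 35.1% ± 5.3 of rest. The order at 4 h thus ran from the globins to Slc4a1, which had lost most. The Slc4a1 cultures (30.4% to 40.8%) lay below every globin culture (68.0% to 120%), whereas the ranges of Alas2, Gata1 and Klf1 overlapped each other. Klf1 (38.9% to 64.5%) also overlapped Slc4a1, and Alas2 (54.8% to 90.5%) overlapped the globins. At 24 h, the globins were at 0.439% to 0.479% of rest on average, Alas2 at 0.403% ± 0.190, Klf1 at 0.483% ± 0.128 and Slc4a1 at 0.123% ± 0.043. Gata1 was left at 5.40% ± 3.26.

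In Th0, the β-globin transcript Hbb-bs was at 11779, 10419, 2896, 686, 199 and 69.7 RPKM at 4, 8, 12, 16, 20 and 24 h. In Th1 it was at 10067, 7119, 1856, 651, 134 and 51.0 RPKM at these times. In Th2 it was at 16875, 5303, 1754, 478, 148 and 74.6 RPKM. Th2 went from the highest library at 4 h to the lowest at 8 h and was the highest again at 24 h.

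The α-globin transcript Hba-a2 followed the same course. It was at 9030, 7442, 2301, 567, 166 and 55.1 RPKM in Th0, and at 8127, 5003, 1490, 574, 107 and 38.4 RPKM in Th1. In Th2 it was at 12249, 3968, 1393, 429, 127 and 56.8 RPKM. Hba-a1 and Hbb-bt went down beside them, to 32.7 to 50.6 RPKM and to 17.1 to 29.8 RPKM at 24 h. Hbb-bt rested on 77511 reads in Th0 at 4 h and on 493 reads at 24 h, with a 95% Poisson interval of 23.9 to 28.6 RPKM at the latter, which covers counting error only.

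Slc4a1, the anion exchanger, was the earliest to go. It was at 153, 64.2, 8.53, 2.31, 0.869 and 0.768 RPKM in Th0, and at 137, 51.4, 5.36, 2.38, 0.709 and 0.508 RPKM in Th1. In Th2 it was at 184, 33.8, 7.21, 1.22, 1.08 and 0.387 RPKM. All its cultures were below both resting libraries from 4 h on, and from 12 h on it was under 2% of rest in every culture.

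Alas2, the haem synthesis enzyme, lay between Slc4a1 and the globins. It was at 190, 128, 30.8, 7.80, 2.35 and 0.917 RPKM in Th0, and at 154, 102, 22.5, 8.33, 1.36 and 1.74 RPKM in Th1. In Th2 it was at 255, 69.2, 24.0, 5.57, 1.86 and 0.741 RPKM. The Th1 value at 24 h stood above that at 20 h. These values rested on few reads, 43 to 75 at 20 h and 38 to 54 at 24 h, depending on the split between its transcripts. A rise was therefore not shown.

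Klf1, the activator of the β-globin gene, was at 23.5, 12.0, 2.50, 0.570, 0.456 and 0.194 RPKM in Th0. It was at 18.9, 10.1, 1.34, 0.563, 0.270 and 0.306 RPKM in Th1, and at 31.4, 7.06, 2.46, 0.309, 0.444 and 0.204 RPKM in Th2. Its loss was not steady after 16 h, where it rested on few reads: 8, 13 and 8 reads in Th0, Th1 and Th2 at 24 h. The 95% Poisson interval of the Th0 value at 24 h was 0.0839 to 0.383 RPKM, and those of Th1 (0.163 to 0.524) and Th2 (0.0880 to 0.402) overlapped it, so a difference between the 24 h libraries was not detectable at this depth.

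Gata1, which stands above the others in the hierarchy of red-cell regulators, was lost least. It was at 20.3, 15.1, 7.02, 5.18, 4.05 and 2.66 RPKM in Th0, and at 16.9, 6.84, 4.26, 4.36, 2.55 and 1.68 RPKM in Th1. In Th2 it was at 16.7, 4.95, 2.14, 1.04, 1.52 and 0.650 RPKM. Th0 was the highest and Th2 the lowest library at all 6 time points.

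**Figure D2:**
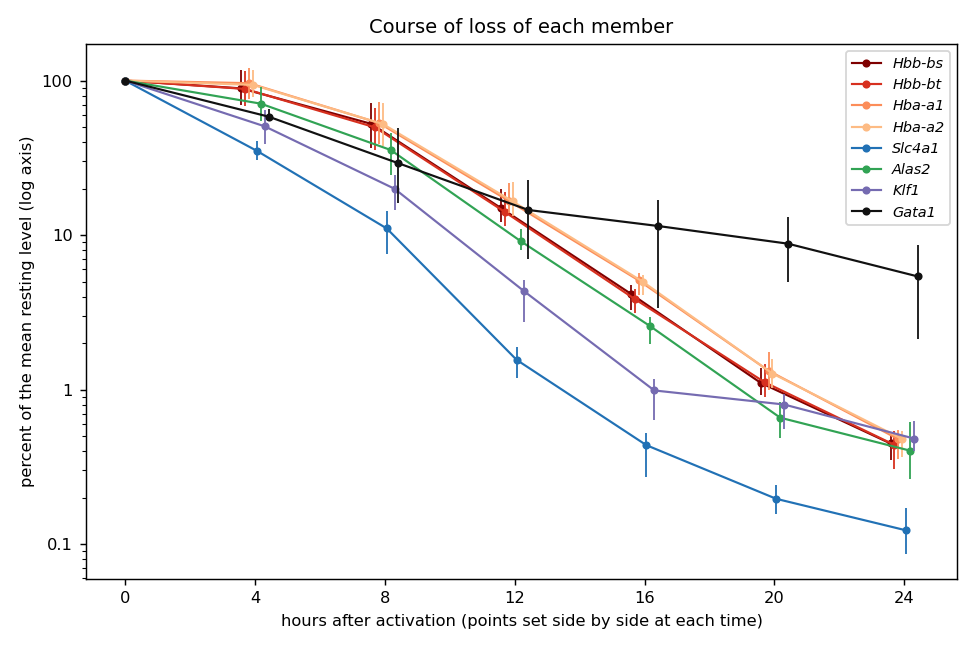
Percent of the mean resting level of each member (log axis) against hours after activation; points are means of the 3 cultures of a time point and vertical lines run from the lowest to the highest culture. At 4 h the members spread from 35.1% for Slc4a1 to 96.2% for Hba-a1, and at 24 h all but Gata1 (5.40%) were under 0.5%.

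The times at which the transcripts crossed given levels were read on straight lines between log values. They also ran from Slc4a1 to the globins, with overlaps between neighbours at the 50% level and between Klf1 and Alas2 at the 1% level. In Th0, Gata1 crossed 50% (7.78 h) after Alas2 (7.07 h). Slc4a1 crossed 50% of rest after 2.33 to 3.10 h and Klf1 after 2.93 to 4.68 h. Gata1 crossed it after 4.28 to 7.78 h, Alas2 after 4.90 to 7.07 h and the summed globins after 6.98 to 9.15 h. The 1% level was crossed by Slc4a1 at 12.9 to 14.0 h, by Klf1 at 15.1 to 18.8 h, by Alas2 at 18.4 to 19.4 h and by the summed globins at 19.9 to 21.5 h. Gata1 did not cross it by 24 h in any condition.

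Averaged over 4 to 24 h, the members other than Gata1 halved every 2.26 to 3.001 h. The straight line through the log values from 4 to 24 h gave a halving time of 2.46 to 2.52 h for the summed globins, 2.34 to 2.67 h for Alas2 and 2.26 to 2.38 h for Slc4a1. Klf1 halved every 2.73 to 3.001 h and Gata1 every 4.73 to 6.73 h. A halving time on RPKM measures the share of a transcript among all RNA and includes any growth of the other RNA. From 4 to 24 h the summed globins fell 168-fold in Th0, 209-fold in Th1 and 221-fold in Th2. The steepest step of the summed globins was from 12 to 16 h in Th0 (4.09-fold) and Th2 (3.47-fold) and from 16 to 20 h in Th1 (5.09-fold).

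Within each library, the globin transcripts kept similar proportions. The Hbb-bt to Hbb-bs ratio was 0.380 and 0.384 at rest and 0.335 to 0.408 over the 18 cultures. Reads shared within the pair limit what this ratio can show, and the α to β ratio is the safer value. The α to β ratio was 0.971 to 1.24 over the cultures. It was highest at 16 h, at 124% ± 4.3 of the resting ratio (SD, n = 3), and was back at 107% ± 4.6 at 24 h. So while each globin fell at least 164-fold from 4 to 24 h, their ratios to Hbb-bs stayed between 87.7% and 127% of the resting ratios.

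The ratios of the other members to Hbb-bs moved apart and, for some, back. The Slc4a1 to Hbb-bs ratio was at 40.2% ± 4.6 of its resting value at 4 h and at 10.7% ± 2.2 at 12 h, and was back at 28.1% ± 10.0 at 24 h. Alas2 settled at 59.1% ± 6.4 of its resting ratio at 20 h, and at 24 h it lay between 51.2% and 176%. Klf1 was at 23.3% ± 3.5 at 16 h and at 81.6% to 179% at 24 h. The Gata1 to Hbb-bs ratio was at 52.5% ± 13.8 of rest at 8 h and at 411% to 1796% at 24 h, so that Gata1 was enriched over globin in the late cultures. These ratios share the Hbb-bs value of a library and rest on few reads for Klf1, Alas2 and Slc4a1 at the last times.

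**Figure D3:**
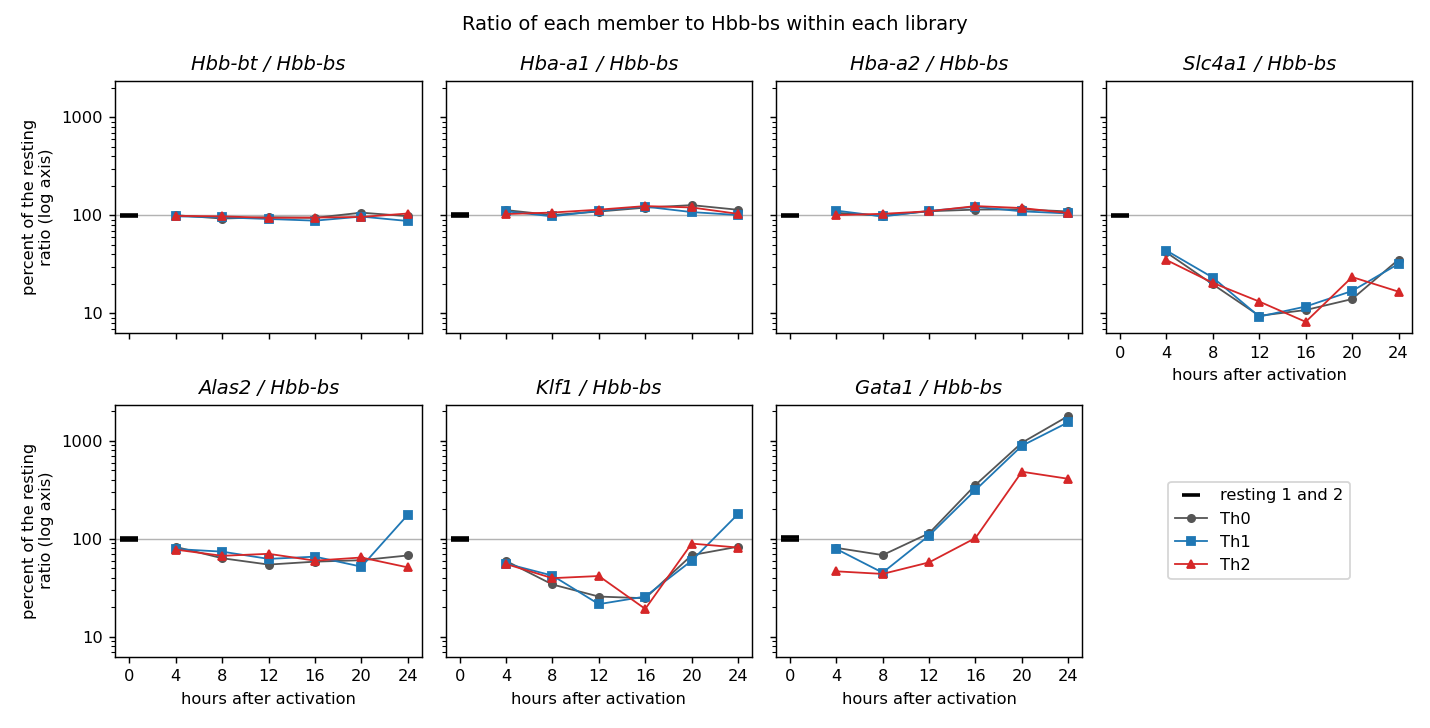
Ratio of each other member to Hbb-bs within a library, as percent of the mean resting ratio (log axis, the same in all panels), against hours after activation; each point is 1 library. The globin panels stay between 87.7% and 127%, Slc4a1 dips to 8.21% and Gata1 climbs to 1796%.

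The next question was whether the skewing condition changed the level or the pace of loss, which the choice of members did not use. Gata1 was the member that differed between conditions. With limma on log2(RPKM + 0.5) over the 18 cultures and the time point as a factor, it was 1.30 ± 0.17 log2 units (SE) lower in Th2 than in Th0 (adjusted p = 6.261e-05), lower at 6 of 6 time points. It was the only member called (adjusted p under 0.05 and at least 2-fold), where 2.01% of all 10737 genes tested were called. Against Th1, Th2 was lower by 0.74 log2 units (SE 0.17, adjusted p = 0.008631), which is under 2-fold, and no member was called where 1.96% of all genes were. Th1 against Th0 gave a Gata1 difference of -0.56 log2 units (SE 0.17, adjusted p = 0.1234), and no member was called where 0.494% of all genes were. The 3 series of cultures came from 1 pool of cells, with 1 library for each condition and time point. By the paper's legend, cells were taken from the cultures over time, so the libraries of a condition may share a culture. These p-values thus measure how time points scatter around a constant difference between series, and not a spread between replicate cultures or animals.

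The read counts behind Gata1 show the difference directly. Reads of its longest transcript (1902 bases) numbered 713, 467, 227, 152, 82 and 77 in Th0 and 481, 150, 63, 33, 47 and 26 in Th2 from 4 to 24 h. The Th2 to Th0 ratio per mapped read was 0.836 at 4 h (95% interval 0.744 to 0.940), 0.206 at 16 h (0.137 to 0.302) and 0.354 at 24 h (0.218 to 0.559). The interval lay below 1 at 6 of 6 time points for Th2 to Th0, at 5 of 6 for Th1 to Th0 and at 4 of 6 for Th2 to Th1. For Hbb-bt, which was not called, it lay below 1 at 6 of 6 time points for Th1 to Th0. Between Th2 and Th0 the Hbb-bt interval lay below 1 at 4 time points and above 1 at 2. Between Th2 and Th1 it was 3 and 3. These intervals cover counting error only and do not single out Gata1. In each culture, 78.1% to 95.5% of the Gata1 reads recovered were from its longest transcript. The shortest Gata1 transcripts (from 421 bases) weigh more per read in the deposited value. Of the markers of the other cells that express Gata1, 7 megakaryocyte and platelet genes and 6 mast cell, basophil and eosinophil genes were tested. None of either list was called for Th2 against Th0, with median differences of -0.20 and -0.24 log2 units beside 0.002 over all genes. The summed level of the 12 mast cell, basophil and eosinophil markers was 6.96 to 44.6 RPKM in Th1, 7.93 to 40.3 in Th0 and 7.95 to 35.1 in Th2. These ranges span the fall over time. The medians over the 6 time points were 21.7 RPKM in Th1, 17.9 in Th0 and 14.3 in Th2. For the 13 megakaryocyte and platelet markers the medians were 17.5 RPKM in Th1, 33.2 in Th0 and 21.2 in Th2. Kit, the stem cell factor receptor of mast cells and of early red-cell precursors, was 0.89 log2 units lower in Th2 than in Th0 (SE 0.15, adjusted p = 0.0004782), under 2-fold, and 1.10 lower than in Th1 (SE 0.15, adjusted p = 8.522e-05), which was called. Of the same list, Cpa3 and Hdc were 0.34 and 0.21 log2 units higher in Th2 than in Th1 and were not called. The others tested were lower in Th2 than in Th1, and of these only Kit was called. The integrin gene Itgb3 of the megakaryocyte list was 1.52 log2 units higher in Th2 than in Th1 (SE 0.20, adjusted p = 7.885e-05) and 1.77 lower in Th1 than in Th0 (SE 0.20, adjusted p = 0.0001166), both called. The part of these cells in the Gata1 difference was not tested.

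The other 7 members did not pass in any comparison. For Th2 against Th0 they differed by -0.36 to -0.12 log2 units, all lower in Th2, and all 4 globins had an unadjusted p under 0.05, as did Gata1 and 41.2% of all genes. The interval for Hbb-bs ran from -0.67 to -0.01. For Th1 against Th0 they differed by -0.49 to -0.15, again with 5 of 8 members at an unadjusted p under 0.05 beside 16.4% of all genes, and the lowest adjusted p was 0.0999, for Hba-a1. For Th2 against Th1 they differed by -0.13 to 0.15. These averages hide a crossing: Th2 held the highest library of all 4 globins, Slc4a1, Alas2 and Klf1 at 4 h and the lowest at 8 h. Th0 was the lowest library of no globin at any time. Between Th2 and Th0 at 8 h, the Hbb-bt ratio was 0.536, with a counting interval of 0.528 to 0.543. Single libraries thus differed in globin beyond counting error, while no average of these 7 members over the 6 time points had an adjusted p under 0.05. Under 3 alternatives for Th2 against Th0 and 2 for Th1 against Th0 the member with the lowest difference did, without reaching 2-fold.

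**Figure D4:**
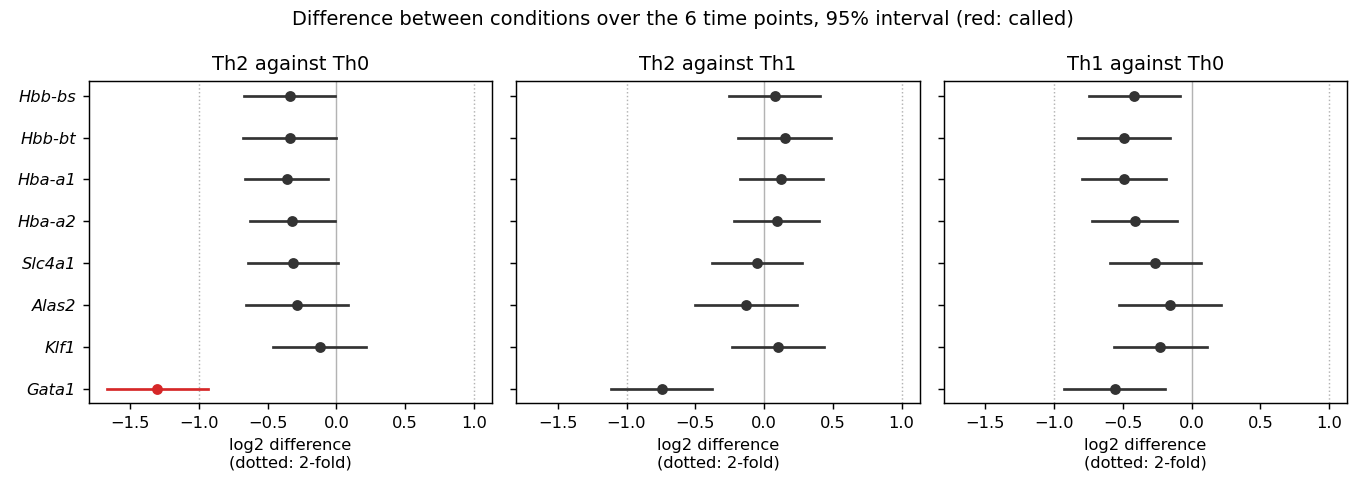
Difference of each member between 2 conditions on the log2 scale over the 6 time points, with its 95% limma interval; dotted lines mark 2-fold and red marks the member called. Gata1 in Th2 against Th0, at -1.30, is the only one called, and the intervals of the other members reach no lower than -0.83.

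Fitted as a straight line from 4 to 24 h, the pace of loss did not differ detectably between conditions. Such a line does not show single steps. From 4 to 8 h, Hbb-bs fell 3.18-fold in Th2, 1.41-fold in Th1 and 1.13-fold in Th0. From 8 to 12 h it fell less in Th2 (3.02-fold) than in Th1 (3.84-fold) and Th0 (3.60-fold). Between 4 and 24 h the fitted slope of Hbb-bs was -0.40 log2 units per hour in Th2, -0.41 in Th1 and -0.40 in Th0, and the Th2 minus Th0 difference was -0.0019 (95% interval -0.074 to 0.070). The Gata1 slope was -0.18 in Th2 and -0.14 in Th0, a difference of -0.038 (-0.108 to 0.033, adjusted p = 0.7129). With limma, 0 of 8 members were called (an adjusted p under 0.05 and at least 0.05 log2 units per hour) in each comparison, and 0 had an unadjusted p under 0.05. Of all genes, 0.0373% were called between Th2 and Th0 and 0.177% between Th2 and Th1. Between Th1 and Th0 it was 0%, where 241 of 10737 genes had an unadjusted p under 0.05. The widest intervals were those of Slc4a1 and Klf1, reaching -0.15 log2 units per hour for Th2 minus Th1 in both. That of Hbb-bs also passed 0.05 on either side, so these slopes were not shown to be alike. The Th2 minus Th0 differences of the members other than Gata1 turned positive without the 4 h libraries, as given at the end.

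Other genes of the red-cell programme were then compared with rest, the 3 cultures of a time point being its libraries. These are different conditions from 1 pool of cells. The p-values here and below thus measure mainly the spread between conditions at a time point, not between replicate cultures or animals. Over 5 lists (other globins, membrane and skeleton, haem synthesis and iron, transcription regulators, late red-cell genes), 25 of 65 genes tested fell at 4 h (38.5%) and 0 rose, beside 7.97% of all 10897 genes that fell and 2.61% that rose. At 24 h, 53 of the 65 had fallen (81.5%) and 1 had risen, beside 17.4% and 12.7% of all genes. The lists' median difference was -0.81 log2 units at 4 h and -3.14 at 24 h, beside -0.05 and -0.04 over all genes. The lists were written with earlier results of these data known, so the counts and the p-values of their genes are a description of them. Genes entered on their mean over all 20 libraries. Some did so only through the resting libraries, so the filter itself put their mean over the cultures below rest. Without these, 23 of 63 fell at 4 h (36.5%, beside 7.07% of all 10726 such genes) and 51 of 63 at 24 h (81.0%, beside 16.3%). In the counts by list, 1 such gene is among the haem and iron genes and 1 among the late red-cell genes.

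The membrane and skeleton genes were lost most fully. At 4 h, 9 of 19 fell and at 24 h 18 of 19, with a median of -6.09 log2 units. Aqp1, a water channel, went from 149 RPKM at rest to 51.6 at 4 h and 0.164 at 24 h (-7.82 ± 0.23 log2 units (SE) at 24 h, adjusted p = 1.062e-13). Rhd, which encodes the Rh antigen, went from 114 to 60.1 and 0.207 RPKM. Rhd did not reach 2-fold at 4 h and passed at 24 h, and the gene of this list that did not pass at 24 h was Slc2a1, a glucose transporter, at 14.7 RPKM at rest and 28.9 at 24 h.

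Genes of haem synthesis and iron supply were lost in part. Of 15, 5 fell at 4 h and 11 at 24 h, with a median of -1.99 log2 units at 24 h. The mitochondrial iron importer gene Slc25a37 was at 145 RPKM at rest, 69.6 at 4 h and 19.0 at 24 h, and passed at both times. Tfrc, the transferrin receptor, was at 179 RPKM at rest, 92.7 at 4 h and 243 at 24 h and passed at neither time. The gene that rose at 24 h was Alas1, the form of the haem synthesis enzyme used outside red cells, from 9.47 to 24.3 RPKM (1.32 ± 0.14 log2 units (SE), adjusted p = 9.326e-07), while its erythroid counterpart Alas2 was lost.

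The transcription regulators split. Of 12 tested, 5 fell at 4 h and 9 at 24 h, with a median of -4.22 log2 units at 24 h. Hemgn, a nuclear protein of red-cell precursors, went from 101 RPKM to 40.7 at 4 h and 0.340 at 24 h (-6.93 ± 0.23 log2 units (SE), adjusted p = 2.702e-13). Ldb1, an adaptor that joins GATA1 complexes, was at 196, 148 and 109 RPKM and did not reach 2-fold at either time. Zfpm1, which encodes FOG1, the cofactor of GATA1, fell at 4 h, from 66.6 to 28.6 RPKM, and was at 36.6 RPKM at 24 h, where it did not reach 2-fold. Of the late red-cell genes, 6 of 18 fell at 4 h and 14 at 24 h. Car2, a carbonic anhydrase, went from 404 RPKM to 186 and 2.73, Prdx2, a peroxidase, from 296 to 183 and 104, and Bnip3l, which serves the removal of mitochondria, from 137 to 136 and 53.9 RPKM. All of these passed at 24 h and Car2 also at 4 h. Among the other globins, only Hbq1b was tested. It was at 13.8 RPKM at rest, 9.32 at 4 h (not passed) and 0.081 at 24 h, where it had fallen (-4.62 ± 0.32 log2 units (SE), adjusted p = 4.179e-09). Hbb-bh2 was listed at 0 in all 20 libraries.

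Many markers of the other spleen cells also fell, at their own times and to different extents, while most neutrophil markers tested did not pass. The counts here leave out markers that entered only through the resting libraries. Macrophage markers, those of the red pulp included, were earlier: 9 of 10 fell at 4 h and 10 at 24 h, and their summed level went from 1009 and 1020 RPKM at rest to 84.3 to 125 at 4 h. Of these, Hmox1, which breaks down haem, went from 252 RPKM to 33.05 at 4 h and 11.2 at 24 h, and the complement genes C1qa and C1qb from 108 and 106 RPKM to 9.98 and 8.65 at 4 h. Of 7 B cell markers, 2 fell at 4 h and 7 at 24 h (Cd79b from 22.2 to 17.6 and 4.12 RPKM, Cd79a from 21.3 to 13.7 and 2.65, Ms4a1 from 12.7 to 5.02 and 2.63). Of 7 megakaryocyte and platelet markers, 1 fell at 4 h and 6 at 24 h, with Ppbp at 11.8, 11.3 and 0.833 RPKM, Itga2b at 9.56, 8.41 and 1.30, and Itgb3, which did not pass, at 26.0, 26.4 and 7.66. Of 6 mast cell, basophil and eosinophil markers, 0 fell at 4 h with limma (0 also at an unadjusted p under 0.05) and 5 at 24 h. Prg2 was at 17.9, 21.0 and 1.11 RPKM and Kit at 6.05, 5.82 and 0.738, and Ccr3, which entered only through rest, at 15.2, 0.629 and 0.090. Of 4 neutrophil markers, 0 fell at 4 h with limma (0 also at an unadjusted p under 0.05) and 1 at 24 h. Mpo was at 6.49, 3.98 and 0.386 RPKM and Cxcr2 at 2.73, 3.20 and 1.81, and Prtn3, which entered only through rest, at 2.63, 2.08 and 0.024. Of 10 T cell markers, 1 fell at 4 h, Cd4, from 327 to 163 RPKM, and 0 passed with limma at 24 h, where 5 were lower and 3 higher at an adjusted p under 0.05 but by less than 2-fold. Cd3g was at 260 RPKM at 4 h and 279 at 24 h, and Lck at 277 and 251. The part of these cells in the loss of the red-cell transcripts was not tested.

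**Figure D5:**
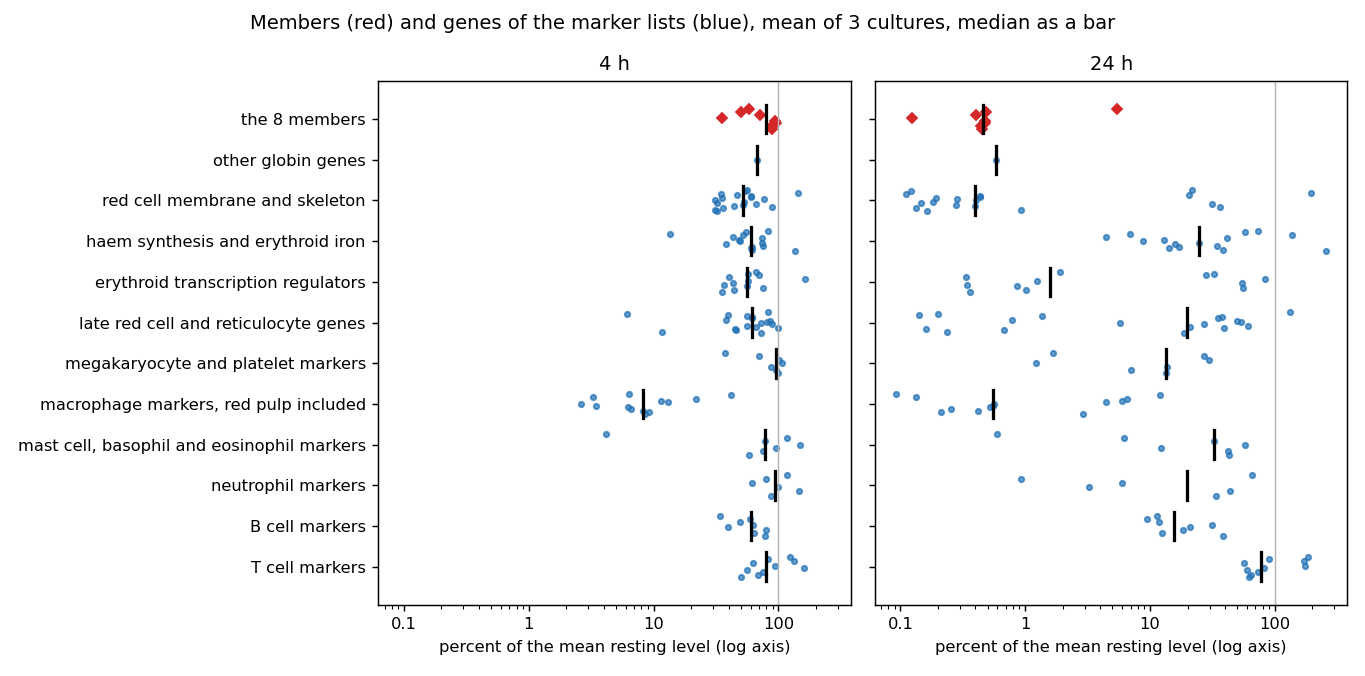
Percent of the mean resting level (log axis) at 4 h and 24 h, as the mean of the 3 cultures; red diamonds are the 8 members, blue points the tested genes of each list (those that entered only through rest included), and black bars the medians. At 24 h the medians of the membrane and skeleton genes (0.396%) and the macrophage markers (0.552%) lie near that of the members, while at 4 h the macrophage median is already at 8.19% and the T cell median is at 77.8% at 24 h.

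The genes whose course was most like that of the members were found by Pearson correlation of log2(RPKM + 0.5) with the mean z-scored profile of the members, over the 20 libraries and 10897 genes. All the points share the time course, so the values are a description. Of the 10 most alike, 6 were red-cell genes of the lists: Rhd (r = 0.985), Kel (0.985) and Cldn13 (0.985), which encode red-cell surface proteins, and Car2 (0.984), Blvrb (0.983) and Tspo2 (0.982). Jchain stood at the top (0.991), with the immunoglobulin genes Ighv6-5 (0.986) and Ighg2c (0.983), and Gng11 (0.984) was the other. Jchain encodes the joining chain made by plasma cells, and was at 784 RPKM at rest, 76.4% of this at 4 h and 4.32% at 24 h. Of the members themselves, Alas2 was most like the mean of the rest (0.993) and Gata1 least (0.894).

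The actinomycin libraries were each sequenced once and have no test. At 0 h with actinomycin, the summed globins were at 2496 RPKM, above the 1459 to 2024 RPKM of the 16 h cultures. They were at 1391 RPKM after 1 h, 1137 after 2 h and 2246 after 4 h, or 55.7%, 45.5% and 90.0% of the 0 h value. The course was thus not a steady fall: the 4 h library stood close to the 0 h library. Hbb-bt was at 310, 156, 144 and 248 RPKM, with a ratio to 0 h of 0.465 at 2 h (95% interval 0.441 to 0.490) and of 0.799 at 4 h (0.764 to 0.834). Alas2 went the same way, at 14.2, 7.86, 7.15 and 11.1 RPKM. Slc4a1 was at 7.08, 2.64, 2.64 and 11.9 RPKM and ended above its 0 h value. RPKM is a share of all RNA, so a higher value is not by itself more of a transcript. At 0 h, Slc4a1 and Alas2 also lay above the 16 h cultures (1.22 to 2.38 and 5.57 to 8.33 RPKM). Klf1 also lay above them, but on 25 reads. Its 95% Poisson interval, 0.410 to 0.935 RPKM, covered the Th0 and Th1 values at 16 h (0.570 and 0.563 RPKM). Gata1 lay within the range of these cultures. Klf1 was at 0.633, 0.651, 1.22 and 1.37 RPKM, with a ratio of 2.17 at 4 h (1.27 to 3.75). Gata1 was at 3.47, 3.26, 2.57 and 2.92 RPKM, and for its longest transcript the ratio at 4 h was 0.907 (0.673 to 1.22), so that a change was not detectable at this depth.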

How the data were processed

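RNA of 24 libraries was sequenced on an Illumina NextSeq instrument. Expression was deposited by the authors as RPKM for each gene symbol, and the submitters' processing notes name BWA and GRCm38, with no version or role given. Beside 22009 named genes, the table has 1 entry without a name and with a sum of 0, which was left out. No value columns were left unused. Transcripts and coordinates were taken from GENCODE on GRCm38.

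Mapped reads were recovered from the steps between low values, and reads of Hbb-bt, Klf1 and Gata1 from the transcript lengths. Poisson and binomial intervals are at 95% and cover counting error only, since no molecular identifiers were used. No reads were recovered for Hbb-bs, Gata1 reads were recovered for 1 resting library, and those of the other members in few libraries or not uniquely.

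RPKM + 0.5 on the log2 scale was tested with limma 3.58.1 (R 4.3.3), letting the prior variance follow the mean level. Genes averaging 1 RPKM or more entered, and p-values were adjusted over all of them after Benjamini and Hochberg. A fold change on this scale understates the change of low genes. A call needed an adjusted p under 0.05 and at least 2-fold, or a slope difference of at least 0.05 log2 units per hour. The scripts were tested on simulated data. Python 3.11.15 with pandas 2.3.3 was used for the rest.

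The members and lists were chosen with earlier results of these data known. Named genes were the members, the 3 genes of each list with the highest resting level, and the 10 genes most like the members. Genes named outside this rule were chosen after their values were seen: Alas1, Slc2a1, Hbb-bh2, Cpa3 and Hdc. Some genes that the rule names are not reported here. Alternatives covered the pseudocount, the filter, the scaling, the trend and the libraries kept.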

Additional observations from a re-analysis of the deposited data

Results flagged for a closer look

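At 4 h the globin transcripts stood on opposite sides of the resting libraries in different conditions, above both in Th2 and below both in Th0 and Th1. Hbb-bs was at 116.35% of the mean resting level in Th2, 81.22% in Th0 and 69.41% in Th1. Hbb-bt was at 115.06%, 81.67% and 68.03%, Hba-a1 at 120.09%, 92.0% and 76.46%, and Hba-a2 at 117.17%, 86.38% and 77.74% in these conditions. The difference was not tested, since each is 1 library. At 8 h the order had turned, with Th2 at 37.4% of the summed resting globin level, Th1 at 48.2% and Th0 at 71.1%. Slc4a1, Alas2 and Klf1 were also highest in Th2 at 4 h but below both resting libraries in every condition.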

How the results depend on the processing

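All 132 recomputed counts of calls stayed within 1.5 times the reported count. Gata1 was called in Th2 against Th0 under all 17 alternatives (-1.51 to -1.10 log2 units, adjusted p 1.057e-05 to 0.008992). For Th2 against Th1 its adjusted p ran from 0.001031 to 0.3136 over the 17 and for Th1 against Th0 from 0.02441 to 0.3887, under 0.05 in 15 and 1 of them, never with 2-fold. The list genes called numbered 31 to 51 at 4 h (42 as reported) and 61 to 104 at 24 h (90). The Gata1 slope difference changed sign without being called: leaving out 1 time point, Th2 minus Th0 ran from -0.0541 (without 24 h) to 0.0116 (without 4 h) and Th1 minus Th0 from -0.0114 (without 8 h) to 0.0297 (without 4 h), and with only 4 to 12 h the former was -0.1546 (adjusted p = 0.8993) and the latter -0.0503. Without the 4 h libraries the Th2 minus Th0 slope differences of the other members were 0.0308 to 0.061 log2 units per hour (adjusted p = 0.08913 for the highest), and 765 instead of 4 of all genes were called. Without them the lowest level difference, Th2 minus Th0, among these members was -0.51 (adjusted p = 0.01536). The lowest of them also had an adjusted p under 0.05 for Th2 minus Th0 without 24 h (-0.45, 0.04832) and with quantile normalization (-0.36, 0.04466), and for Th1 minus Th0 with quantile normalization (-0.47, 0.03754) and in the fit of these conditions alone (-0.49, 0.009285), each under 2-fold. The cause was not tested. Of 171 recomputed descriptive values, 166 moved by less than the SD between cultures, the others being globin values under quantile normalization. Rescaling to the RNA other than globins was added after the data were seen and changed no member's call. Depth limits Klf1, Slc4a1 and Alas2 after 16 h, and no replicate of a culture was sequenced. Conditions were matched by time point in the level fits, and the labels of the cultures hold no replicate number for a further block.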
